A study of Mus musculus with 4 samples.

Results

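The genes described here are 9 symbols of the glucocorticoid system, out of 24421 gene symbols counted in fibro-adipogenic progenitors (FAPs) of mouse skeletal muscle. They were taken by name from a fixed list, drawn up with earlier results of these data known: Hsd11b1, the enzyme that activates the hormone; Nr3c1, its receptor; and 7 genes known as targets of that receptor, which are Fkbp5, Tsc22d3, Per1, Zbtb16, Mt1, Mt2 and Sgk1. All 9 were found in the table and all 9 passed the filter on low counts. FAPs are stromal cells that support muscle repair, and they were sorted as live cells that stained CD31- CD45- Sca1+ and were then split by DPPIV, the surface peptidase encoded by Dpp4, into DPPIV- FAPs and DPPIV+ FAPs. Both kinds of cell came from each of 2 wild-type mice, which gave 4 bulk RNA libraries with 1 library of each kind per mouse. All mice had received 3 weeks of CSF1R inhibition, which removes macrophages, through the drug PLX73086 in chow, followed by 3 days of regular diet. The labels give neither the age nor the sex of the mice; the methods describe adult mice of both sexes. No library came from mice without the inhibitor or from mice given a glucocorticoid, so the only comparison these data allow is DPPIV+ against DPPIV- FAPs within a mouse.

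Glucocorticoids are steroid hormones of the adrenal cortex that enter cells freely. Inside the cell, the enzyme encoded by Hsd11b1 regenerates active corticosterone from its inactive keto form, while Hsd11b2 does the opposite. The hormone binds the glucocorticoid receptor, which is held in the cytoplasm by Hsp90 and its co-chaperones, and the receptor moves to the nucleus, where it binds glucocorticoid response elements (GREs) and raises or lowers transcription. In fibroblasts and in muscle this system restrains inflammation, limits collagen synthesis and favours adipocyte formation.

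The libraries held between 18240110 and 20879405 counted reads, and every one of the 9 genes had between 1317 and 15382 reads in every library, so counting error was small for all of them. Levels are given as CPM (counts scaled to the size of the library) on library sizes scaled by the TMM method, as the mean ± SD over n = 2 mice. Differences are log2 fold changes of DPPIV+ over DPPIV- FAPs from edgeR's quasi-likelihood test with mouse and cell type in the model, with Benjamini-Hochberg adjustment over the 11588 genes tested and a threshold of 0.05. With 2 mice the spread of each gene was taken entirely from the trend over all genes, which makes the adjusted p-values of abundant genes very small. Dpp4 itself was at 89.8 and 39.7 CPM in the DPPIV- libraries and at 728 and 575 CPM in the DPPIV+ libraries, which follows the labels. The FAP markers Pdgfra, Ly6a, Cd34, Dcn, Col1a1 and Pdgfrb were abundant in all libraries, but none was level between the kinds of FAP. Of these 6, edgeR called 4 lower and 2 higher on the DPPIV+ side, and so did DESeq2's Wald test. In edgeR, Col1a1 had -0.40, Pdgfra -0.38, Pdgfrb -0.33 and Dcn -0.28, whereas Cd34 had 0.52 and Ly6a 0.58. Whether these shifts have a part in the differences of the 9 genes was not tested. Xist had 153 and 166 reads in the libraries of mouse 1 and 1 and 3 reads in those of mouse 2, while 4 genes of the Y chromosome summed to between 125 and 135 CPM in all libraries. In bulk RNA, a change in the share of cells that express a gene cannot be told apart from a change in RNA per cell.

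Of the 9 genes, 4 were lower in DPPIV+ FAPs (Hsd11b1, Tsc22d3, Sgk1 and Fkbp5), 2 were higher (Zbtb16 and Mt2) and 3 did not pass the threshold (Nr3c1, Per1 and Mt1). Over all genes tested, 17.2% were lower and 15.9% were higher by the same test. DESeq2's Wald test called the same 4 lower and the same 2 higher, where 8.59% of all genes were lower and 7.97% higher. The median log2 fold change of the 9 genes was -0.05, against -0.00 over all genes tested. Genes past the threshold lie towards the ends of the distribution by the nature of the test. The lowest decile of all genes ended at a log2 fold change of -0.54. Hsd11b1 and Tsc22d3 lay under it, Sgk1 lay just under it at -0.56, and Fkbp5 did not reach it. The highest decile began at 0.36, and Zbtb16 and Mt2 lay above it. Both DPPIV+ libraries lay below both DPPIV- libraries for 5 of the 9 genes, where 28.6% of all genes did so, and above them for 3 of the 9, where 27.8% did so. Per1 was the gene whose groups overlapped. Leaving a mouse out cannot be tested, because it leaves 1 library per cell type. Each of the 6 called genes moved the same way in both mice. So did 3804 of all called genes, of which 1837 were higher and 1989 lower. A common direction thus nearly follows from the call and adds little to it.

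**Figure D1:**
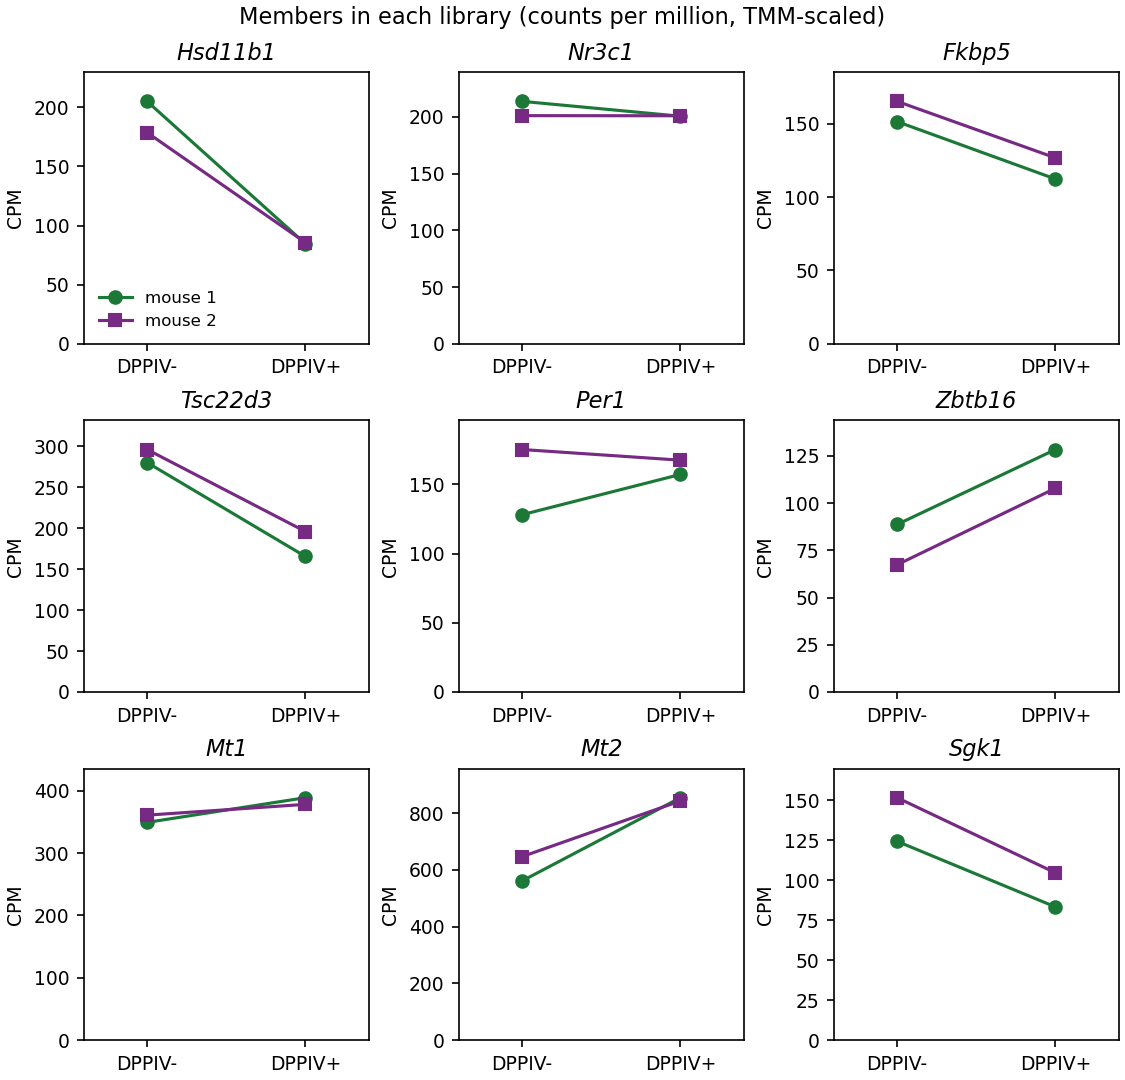
Level of each of the 9 genes in each library, in TMM-scaled CPM on a linear axis that starts at 0, with DPPIV- FAPs on the left and DPPIV+ FAPs on the right of each panel and a line joining the 2 libraries of a mouse. The lines fall in both mice for Hsd11b1, Fkbp5, Tsc22d3 and Sgk1, rise in both for Zbtb16 and Mt2, and stay nearly level for Nr3c1 and Mt1, while those of Per1 run in opposite directions.

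Hsd11b1 (chromosome 1, 193221634 to 193264075, minus strand, in the GENCODE annotation of GRCm38) changed most among the 9. In mouse 1 it was at 205 CPM in the DPPIV- and 84.5 CPM in the DPPIV+ library, and in mouse 2 at 179 and 85.6 CPM. The DPPIV+ libraries were nearly equal to each other and lay well below both DPPIV- libraries. Its mean fell from 192 ± 18.7 to 85.1 ± 0.784 CPM (SD, n = 2), a 2.25-fold lower level in the DPPIV+ cells, with a log2 fold change of -1.17 (SE 0.067) and an adjusted p of 6.76e-65 by edgeR. By mouse, the log2 ratios were -1.28 and -1.06, and 3.86% of all tested genes had a log2 fold change as low. Hsd11b1 was among the abundant genes of DPPIV- FAPs, at the 93.6th percentile of mean CPM over tested genes, and stood at the 82.7th percentile in DPPIV+ FAPs.

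The genes around this enzyme in the pathway moved too. H6pd encodes the dehydrogenase of the endoplasmic reticulum that supplies the NADPH on which Hsd11b1 runs as a reductase. It was at 296 and 263 CPM in DPPIV- FAPs and at 199 and 203 CPM in DPPIV+ FAPs, with a log2 fold change of -0.47 (SE 0.067; adjusted p = 1.91e-11 by edgeR), so that there were 0.693 and 0.678 reads of Hsd11b1 per read of H6pd in the DPPIV- libraries and 0.426 and 0.421 in the DPPIV+ libraries. Hsd11b2, the enzyme that inactivates the hormone, was rare, with 153 reads falling to 33 between the libraries of mouse 1 and 222 reads falling to 49 between those of mouse 2. This was a log2 fold change of -2.04 (SE 0.22; adjusted p = 1.52e-19 by edgeR). For each read of Hsd11b2, the DPPIV- libraries held 28.0 and 15.7 reads of Hsd11b1 and the DPPIV+ libraries 46.1 and 31.9, so within each mouse this ratio was the higher one in DPPIV+ FAPs. The read ratio of a gene pair also depends on their transcript lengths, so it can be compared between libraries but not read as a ratio of molecules.

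In the list of 10 genes of corticosteroid supply and clearance, 5 passed the filter. Of these, 4 were lower and 1 higher in DPPIV+ FAPs by edgeR, against 17.2% and 15.9% of all genes tested. Beside H6pd and Hsd11b2, the lower ones were the steroid exporters Abcb1a, with a log2 fold change of -0.90 from 5.69 to 3.07 CPM, and Abcb1b, with -0.42 from 9.16 to 6.91 CPM. These 2 calls are not made by DESeq2, which called 2 lower and 1 higher, against 8.59% and 7.97% of all genes. Srd5a1, a reductase that acts on corticosterone among other steroids, was higher in DPPIV+ FAPs, with a log2 fold change of 1.26 (SE 0.24) from 2.23 to 5.33 CPM. The other 5 were under the filter. Of these, the adrenal enzyme Cyp11b1 and the plasma carrier Serpina6 had 0 reads in all libraries. Cyp21a1, by contrast, had between 17 and 42 reads, which is at most 2.33 CPM. For a count of 0, the limit of 3 reads corresponds to between 0.143 and 0.167 CPM, for counting error only.

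Vegfc, Bmp5, S100b, Ggt7 and Rgs3 were the 5 genes whose levels over the 4 libraries were most like those of Hsd11b1. The measure was the root mean square distance between centred log2 CPM values, which ran from 0.0216 for Vegfc to 0.0375 for Rgs3. Bmp5, a bone morphogenetic protein and the most abundant of the 5, was at 132 and 111 CPM in the DPPIV- libraries against 53.5 and 52.9 CPM in the DPPIV+ ones. Over 4 libraries, such likeness says only that these genes fell to a similar extent.

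Nr3c1, the glucocorticoid receptor (chromosome 18), showed no detectable difference between the kinds of FAP. It was at 214 CPM in DPPIV- and 200.5 CPM in DPPIV+ FAPs of mouse 1, and at 201 and 200.9 CPM in mouse 2. The 4 libraries span a narrow range, and in mouse 2 the 2 values are nearly identical. The means were 207 ± 8.94 and 200.7 ± 0.25 CPM (SD, n = 2). The log2 fold change was -0.05 with a 95% interval from -0.18 to 0.09 (adjusted p = 0.673 by edgeR), and DESeq2's interval ran from -0.24 to 0.15, so differences larger than these limits lie outside the intervals. The mineralocorticoid receptor Nr3c2, which binds the same hormone, was far rarer, at 4.25 and 3.37 CPM in DPPIV- FAPs and at 5.22 and 2.80 CPM in DPPIV+ FAPs.

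All 14 genes listed as partners of the receptor were tested, with a median log2 fold change of -0.01. By edgeR, 2 were higher and 2 lower in DPPIV+ FAPs, against 15.9% and 17.2% of all genes tested. The higher ones were Bag1, a co-chaperone that acts on the receptor complex, with 0.55 (SE 0.066) from 71.8 to 105 CPM, and the coactivator Ncoa2, with 0.44 (SE 0.068) from 55.7 to 75.8 CPM. The lower ones, Hsp90aa1 with -0.21 and the coactivator Ncoa3 with -0.16, passed the threshold in edgeR but not in DESeq2, which called 0 of the 14 lower. The most abundant chaperones of the receptor were Hsp90ab1, at 1545 and 1593 CPM, and Hspa8, at 1286 and 1193 CPM (DPPIV- and DPPIV+ means), and their log2 fold changes, 0.04 and -0.10, did not pass.

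Fkbp5 (chromosome 17, 28399094 to 28517527, minus strand) encodes a co-chaperone of Hsp90 that lowers the affinity of the receptor for its hormone and is itself induced by the receptor, which closes a feedback loop. It was at 151 and 165 CPM in DPPIV- FAPs and at 112 and 127 CPM in DPPIV+ FAPs of mice 1 and 2. Both DPPIV+ libraries were below both DPPIV- libraries. The mean fell from 158 ± 9.72 to 120 ± 10.2 CPM (SD, n = 2), a 1.33-fold difference with a log2 fold change of -0.41 (SE 0.066; adjusted p = 6.79e-09 by edgeR), the smallest of the 6 that passed. Mice 1 and 2 gave log2 ratios of -0.43 and -0.38.

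Tsc22d3 (chromosome X, 140539528 to 140600659, minus strand) encodes the glucocorticoid-induced leucine zipper protein, which restrains inflammatory transcription and adipocyte formation. It was at 280.4 and 296 CPM in DPPIV- FAPs and at 166 and 196 CPM in DPPIV+ FAPs of mice 1 and 2. The gap between the kinds of FAP was several times the spread between mice. The mean fell from 288 ± 11.2 to 181 ± 21.6 CPM (SD, n = 2), which is 1.599-fold lower, with a log2 fold change of -0.68 (SE 0.068; adjusted p = 2.53e-22 by edgeR). The log2 ratio was -0.76 in mouse 1 and -0.60 in mouse 2. Its paralog Tsc22d1 fell as well, from 239 to 138 CPM with a log2 fold change of -0.79 (SE 0.067), whereas Tsc22d2 and Tsc22d4 had log2 fold changes of -0.08 and -0.12 that did not pass.

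Zbtb16 (chromosome 9, 48654297 to 48836222, minus strand) encodes a zinc finger repressor that marks several progenitor cells and is strongly induced by glucocorticoids in mesenchymal cells. It went the opposite way, from 88.6 CPM in DPPIV- to 128 CPM in DPPIV+ FAPs of mouse 1 and from 67.3 to 108 CPM in mouse 2. Both DPPIV+ libraries were above both DPPIV- libraries, although the mice differed among themselves. The mean rose from 78.0 ± 15.1 to 118 ± 14.5 CPM (SD, n = 2), which is 1.52-fold higher, with a log2 fold change of 0.60 (SE 0.066; adjusted p = 9.44e-19 by edgeR). In mouse 1 alone the log2 ratio was 0.53, and in mouse 2 it was 0.68.

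Per1 (chromosome 11, 69095217 to 69109960, plus strand), a repressor of the circadian clock whose gene is also switched on directly by the receptor, showed no common direction. It was at 128 CPM in DPPIV- and 157 CPM in DPPIV+ FAPs of mouse 1, but at 175 and 168 CPM in mouse 2. The lowest and the highest of the 4 values were both from DPPIV- FAPs. The log2 ratio was therefore 0.30 in mouse 1 and -0.06 in mouse 2, and the fitted log2 fold change was 0.11 with a 95% interval from -0.02 to 0.24 (adjusted p = 0.196 by edgeR). The edgeR interval held neither ratio, whereas DESeq2's interval, from -0.11 to 0.35, held both.

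**Figure D2:**
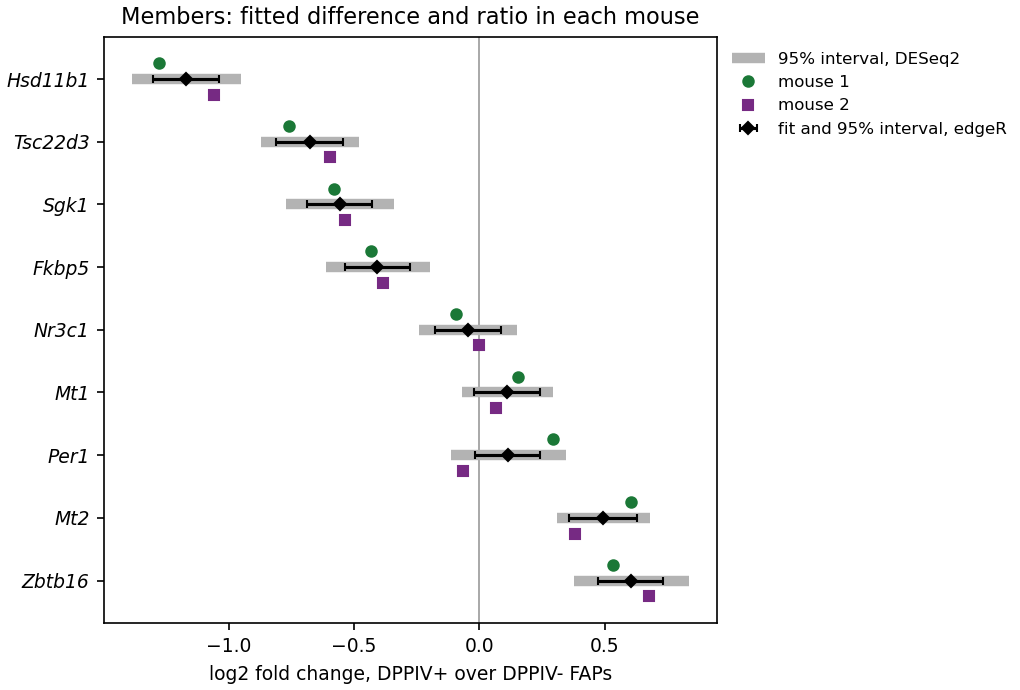
Log2 fold change of DPPIV+ over DPPIV- FAPs for the 9 genes (x axis), with the edgeR fit and its 95% interval as black diamonds and bars, the DESeq2 95% interval as a grey band, and the ratio in mouse 1 (green circles) and mouse 2 (purple squares). The intervals of Hsd11b1, Tsc22d3, Sgk1 and Fkbp5 lie under 0 and those of Zbtb16 and Mt2 above 0 in both tests, while those of Nr3c1, Mt1 and Per1 include 0.

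Sgk1 (chromosome 10, 21882184 to 21999903, plus strand) encodes the serum- and glucocorticoid-regulated kinase, which acts on ion channels, on Foxo factors and on the ubiquitin ligase Nedd4l. RefSeq promoter windows (GRCm38.p6), which run from 250 bases before to 50 bases after a start site, were at hand for 7 of the 9 genes with 15 windows in all, and 6 of the windows belong to Sgk1. They were searched on both strands for the GRE palindrome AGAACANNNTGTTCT, which occurs in 3 of the 32851 windows of all genes (0.00913%). The window of the fifth start site of Sgk1 is one of these 3, and it is shown because none of the other 14 windows holds the palindrome. The stretch is chr10:21993640-21993880 on the plus strand, from 250 to 10 bases before that start site, with the palindrome in capitals.
Sgk1, start 5: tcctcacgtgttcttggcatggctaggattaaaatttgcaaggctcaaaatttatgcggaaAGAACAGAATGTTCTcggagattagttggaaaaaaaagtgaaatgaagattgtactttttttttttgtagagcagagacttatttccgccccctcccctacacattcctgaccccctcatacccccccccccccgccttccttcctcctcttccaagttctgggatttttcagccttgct
The palindrome lies at chr10:21993701-21993715, from base -189 to base -175 of this start site and 965 bases before the next start site. The counts are summed over all start sites of a gene and do not tell which was in use, and a match is a description of the letters only.

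Sgk1 was at 124 and 152 CPM in DPPIV- FAPs and at 83.4 and 105 CPM in DPPIV+ FAPs of mice 1 and 2. Both kinds of FAP were higher in mouse 2, and in each mouse the DPPIV+ library was the lower one by a similar factor. The mean fell from 138 ± 19.3 to 94.0 ± 15.1 CPM (SD, n = 2), which is 1.47-fold lower, with a log2 fold change of -0.56 (SE 0.066; adjusted p = 5.87e-16 by edgeR). Within mice 1 and 2, the log2 ratios were -0.58 and -0.54. Among its relatives and partners, Sgk2 had 0 reads and Sgk3 and Nedd4l did not pass, with log2 fold changes of -0.09 and 0.12, and all 3 genes of the epithelial sodium channel that were listed were under the filter. Ndrg1, whose protein Sgk1 phosphorylates, was higher in DPPIV+ FAPs, from 133 to 171 CPM with a log2 fold change of 0.37 (SE 0.066).

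Mt1 and Mt2 encode small cysteine-rich proteins that bind zinc and copper, and both are switched on by metals through Mtf1 and by glucocorticoids. They are neighbours on chromosome 8, Mt2 at 94172664 to 94173568 and Mt1 at 94179082 to 94180327, both on the plus strand. Their upstream stretches, from 250 to 10 bases before the RefSeq start site, are shown because the pair is known for metal response elements and because the genes differed in these data. Capitals mark the core of a metal response element, TGCGCNC or TGCACNC on either strand, and in Mt1 also a GRE-like palindrome with fewer fixed letters, GNACANNNTGTNC. Mt1 is read at chr8:94178839-94179079 and Mt2 at chr8:94172368-94172608.
Mt1: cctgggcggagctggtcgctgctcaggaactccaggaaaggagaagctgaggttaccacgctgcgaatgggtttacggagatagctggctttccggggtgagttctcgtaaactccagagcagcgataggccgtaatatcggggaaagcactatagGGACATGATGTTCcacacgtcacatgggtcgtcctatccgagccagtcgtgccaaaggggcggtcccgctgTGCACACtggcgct
Mt2: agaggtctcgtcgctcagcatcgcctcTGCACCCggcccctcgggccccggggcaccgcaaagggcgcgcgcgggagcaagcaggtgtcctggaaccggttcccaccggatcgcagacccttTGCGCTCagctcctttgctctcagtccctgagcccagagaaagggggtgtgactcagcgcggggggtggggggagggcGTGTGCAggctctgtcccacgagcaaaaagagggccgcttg
The full window of Mt2 holds 4 cores and that of Mt1 holds 3, of which the ones after base -10 are not shown. A window with 3 or more cores is uncommon, at 1.97% of all windows, while 25.7% hold at least 1. The GRE-like palindrome of Mt1, from base -94 to base -82, occurs in 0.475% of all windows, and the Mt2 window does not hold it.

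Mt2 was the most abundant of the 9 genes and was higher in DPPIV+ FAPs. It was at 561 and 647 CPM in DPPIV- FAPs and at 854 and 843 CPM in DPPIV+ FAPs of mice 1 and 2. The DPPIV+ libraries were close to each other and above both DPPIV- libraries. The mean rose from 604 ± 60.5 to 849 ± 8.06 CPM (SD, n = 2), which is 1.41-fold higher, with a log2 fold change of 0.49 (SE 0.070; adjusted p = 1.65e-11 by edgeR). The log2 ratio was 0.61 in mouse 1 and 0.38 in mouse 2.

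Mt1 was at 349 and 361 CPM in DPPIV- FAPs and at 389 and 378 CPM in DPPIV+ FAPs. The direction was that of Mt2 in both mice, but the log2 fold change was 0.11 with a 95% interval from -0.02 to 0.24 (adjusted p = 0.221 by edgeR), and DESeq2's interval ran from -0.07 to 0.29. Mt2 took 61.6% and 64.2% of the reads of the pair in the DPPIV- libraries and 68.7% and 69.0% in the DPPIV+ libraries, so the balance between them shifted towards Mt2 in both mice. In the annotation, 432 exon bases of Mt2 are also covered by an antisense gene, Gm45774, which is not in the table, and whether strand was used in counting is not given in the sources used here. Of the 6 other genes listed for the metal response, 4 were tested and 0 passed in edgeR. Mtf1 was at 22.2 and 22.3 CPM, and the zinc transporters Slc39a14, Slc30a1 and Slc39a8 had log2 fold changes of -0.08, 0.16 and -0.31.

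**Figure D3:**
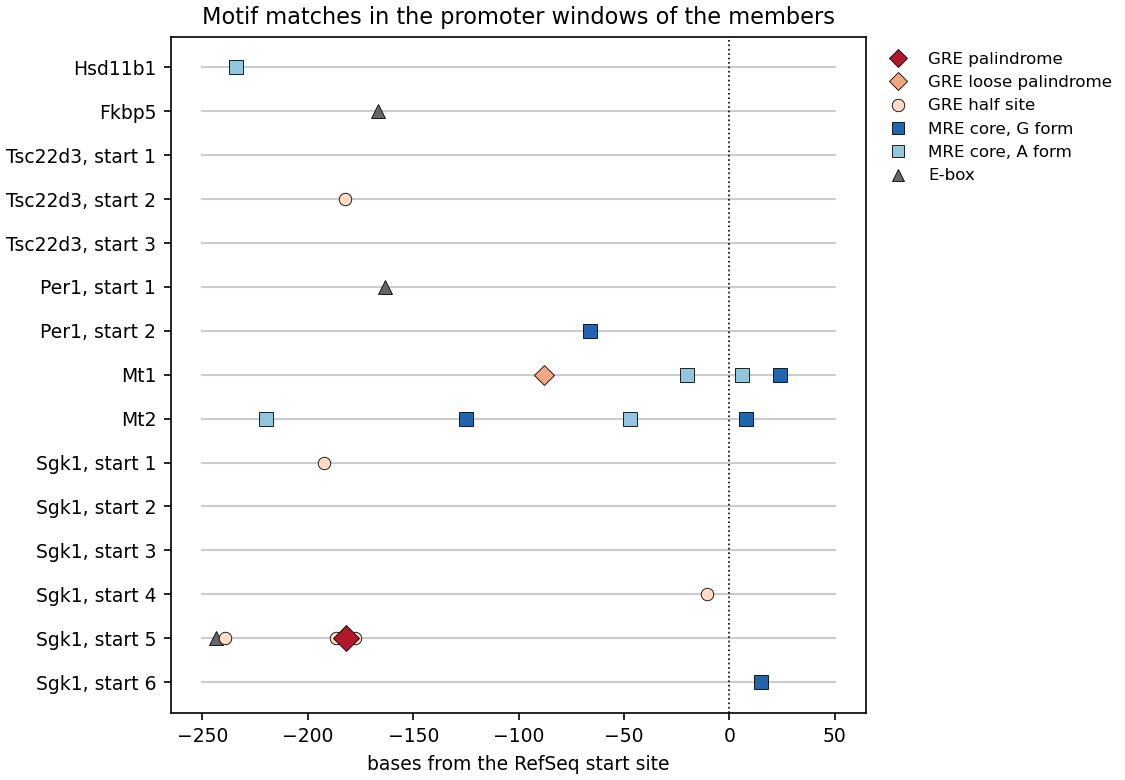
Matches of the searched motifs (symbols) along the RefSeq promoter windows of the 7 genes with a window, as the distance in bases from the start site (x axis, dotted line at 0). The GRE palindrome is in the fifth window of Sgk1, and Mt1 and Mt2 hold 3 and 4 cores of metal response elements.

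Other matches in the 15 windows were few. The hexamer AGAACA, an arm of the palindrome, was found in 4 of the 15 windows, 1 of Tsc22d3 and 3 of Sgk1, where 19.0% of all windows hold it. These 4 include the fifth window of Sgk1, where both arms of the palindrome are themselves matches. The E-box CACGTG, a site of clock factors, was found in Fkbp5, in a window of Per1 and in the fifth window of Sgk1, against 7.15% of all windows. The single window of Hsd11b1 held a core of a metal response element and no GRE form. That a motif was not found says only that its letters are not within these 300 bases.

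Levels of different genes were compared per kilobase of the principal transcript, although the reads were tallied per gene, so the order depends on this choice of length. The order in DPPIV- FAPs was Mt2 (1182 CPM per kb), Mt1 (646), Tsc22d3 (146), Hsd11b1 (118), Sgk1 (56.2), Fkbp5 (41.0), Per1 (32.5), Nr3c1 (32.2) and Zbtb16 (15.3). Per1 and Nr3c1 overlapped over the mice, and the other neighbours in this order did not. In DPPIV+ FAPs, Mt2 (1661 CPM per kb), Mt1 (698), Tsc22d3 (91.6) and Hsd11b1 (52.4) led in the same order, followed by Sgk1 (38.3), Per1 (34.8), Nr3c1 (31.2), Fkbp5 (31.0) and Zbtb16 (23.1). Here Sgk1 overlapped with Per1, and Nr3c1 with Fkbp5. Hsd11b1 thus stood above Nr3c1 on this scale in both kinds of FAP, without overlap over the mice. The principal transcript holds 1623 of the 4251 exon bases of Hsd11b1 and 6436 of the 7684 of Nr3c1. Per kilobase of all exon bases, Hsd11b1 would stand above Nr3c1 in DPPIV- FAPs but below it in DPPIV+ FAPs.

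The mice themselves differed in 3 of the 9 genes when the term for mouse was tested. Sgk1 and Per1 were higher in mouse 2, with log2 differences of 0.31 (adjusted p = 0.000144 by edgeR) and 0.27 (adjusted p = 0.00122 by edgeR), and Zbtb16 was lower, with -0.32 (adjusted p = 5.22e-05 by edgeR). Over all genes tested, 4.47% were higher and 4.51% lower in mouse 2. For Hsd11b1 the log2 difference between mice was -0.10 and for Mt1 it was 0.00, neither of which passed. The other 4, Nr3c1, Fkbp5, Tsc22d3 and Mt2, did not pass either.

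Other genes known to be induced by glucocorticoids went in both directions. Of 31 listed, 29 were tested, with a median log2 fold change of -0.14. By edgeR, 10 were higher and 11 lower in DPPIV+ FAPs, against 15.9% and 17.2% of all genes tested. The higher ones were led by Lcn2, an iron-trafficking lipocalin, with 1.27 (SE 0.16) from 5.96 to 14.3 CPM. Anxa1, the phospholipase inhibitor through which glucocorticoids dampen inflammation, rose from 528 to 1069 CPM with a log2 fold change of 1.02 (SE 0.071). Errfi1, an inhibitor of the EGF receptor, rose from 583 to 1068 CPM with 0.88 (SE 0.071). Among the lower ones, Crispld2, a secreted protein that binds endotoxin, fell from 1065 to 369 CPM with a log2 fold change of -1.53 (SE 0.071). Its log2 ratios were -1.70 and -1.36 in mice 1 and 2, and its SE in DESeq2 was 0.21. Rgcc, a cell cycle regulator, fell from 8.45 to 4.47 CPM with -0.92 (SE 0.19). The abundant targets Dusp1, a phosphatase of MAP kinases, and Txnip, which binds thioredoxin, had 0.23 and -0.23, and Zfp36, which destabilises cytokine mRNA, had 0.12 and did not pass. Each of the edgeR calls had the same direction in both mice, as nearly all calls did over all genes. DESeq2 called 8 of the 29 higher and 4 lower, against 7.97% and 8.59% of all genes.

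Inflammatory genes that glucocorticoids are known to repress were divided as well. Of 13 listed, 10 were tested, with a median log2 fold change of 0.17. In edgeR, 4 were higher and 3 lower, against 15.9% and 17.2% of all genes tested. The lower ones were the adhesion molecules Vcam1, from 88.3 to 26.0 CPM with -1.77 (SE 0.074), and Icam1, from 131 to 52.5 CPM with -1.32 (SE 0.068), and the collagenase Mmp13, with -2.18 (SE 0.24) from 8.29 to 1.71 CPM. Mmp13 was at 12.3 and 4.29 CPM in the DPPIV- libraries and was not called by DESeq2. Ptgs2, the inducible cyclooxygenase, was the largest of the higher ones, from 232 to 534 CPM with 1.16 (SE 0.069), followed by the chemokine Ccl7, with 0.54 (SE 0.074). The calls of Il6 and Cxcl1, with 0.28 and 0.24, rest on mouse 1: in mouse 2 their log2 ratios were -0.16 and -0.09. DESeq2 did not call them, and it called 2 of the list higher and 2 lower, against 7.97% and 8.59% of all genes.

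**Figure D4:**
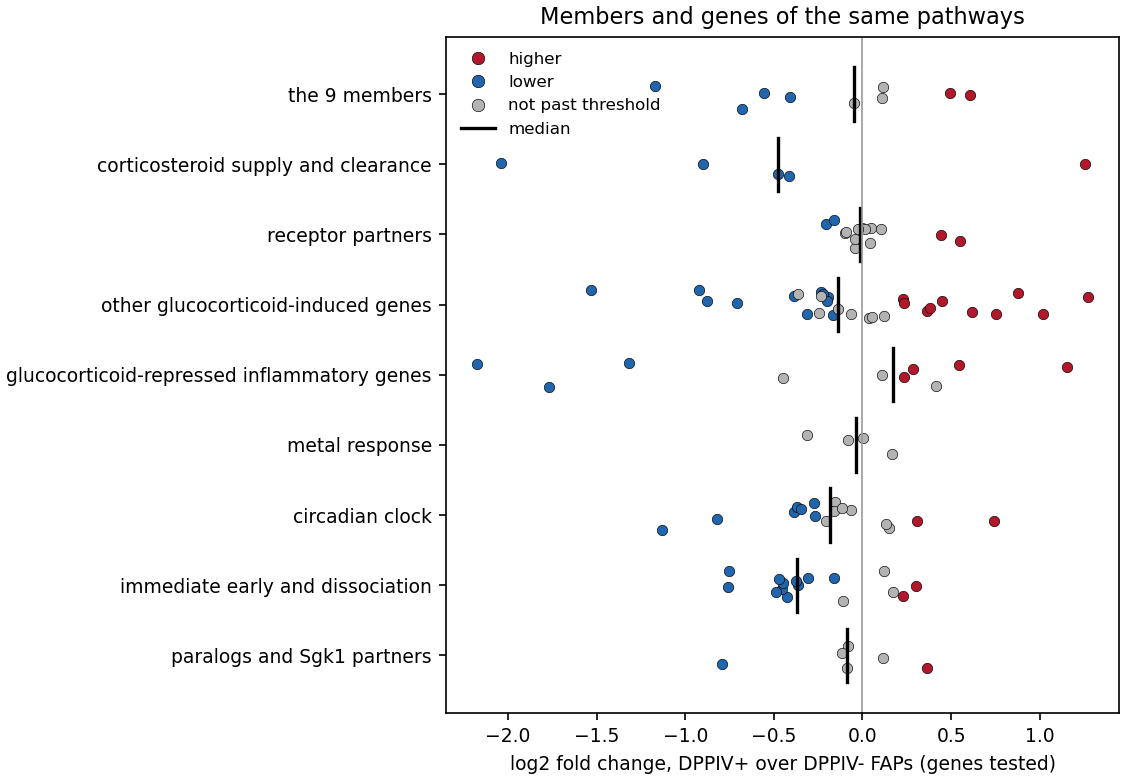
Log2 fold change of DPPIV+ over DPPIV- FAPs (x axis) for each tested gene (points) of the 9 genes and of the pathway lists (rows), coloured by edgeR's call, with the median of each list as a vertical line. Red and blue points stand in most rows on both sides of 0, and the medians run from -0.47 for corticosteroid supply and clearance to 0.17 for the repressed inflammatory genes.

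Several of the 9 genes also answer to the clock or to the stress of taking tissue apart, so lists for both were examined. Of 17 other clock genes, 16 were tested, with a median log2 fold change of -0.18. In edgeR, 7 were lower and 2 higher in DPPIV+ FAPs, against 17.2% and 15.9% of all genes tested. Hlf, an output factor of the clock, fell from 24.9 to 11.4 CPM with -1.13 (SE 0.12), Bhlhe41 from 32.0 to 18.1 CPM with -0.82 (SE 0.098), and Per2 and Tef had -0.39 and -0.37. Bhlhe40 and Nr1d1, the most abundant of the list, had -0.35 and -0.27, and Rora, with -0.12, did not pass. Cry2, which represses the clock and also binds the glucocorticoid receptor, rose from 46.4 to 77.7 CPM with 0.74 (SE 0.069), and Nfil3 with 0.31. Of the clock genes, DESeq2 called 3 lower and 2 higher, against 8.59% and 7.97% of all genes. The libraries are paired by animal, and the hour of dissection is not given in the sources used here. The part of the clock in the differences of the 9 genes was not tested.

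All 16 genes of the immediate early and dissociation list were tested, and 11 were lower and 2 higher in DPPIV+ FAPs, with a median log2 fold change of -0.37. Over all genes tested, 17.2% were lower and 15.9% higher by this test. They summed to 17220 and 17180 CPM in the DPPIV- libraries and to 15650 and 14110 CPM in the DPPIV+ libraries. Egr2 had -0.76, Btg2 -0.75, Nr4a1 -0.49, Jun -0.45, Egr1 -0.37 and Fos -0.31, and the heat shock gene Hspa1b had -0.47, which may share reads with its near copy Hspa1a. Dusp1 and Atf3 were higher, with 0.23 and 0.30. The median of this list thus lay on the side of Sgk1, Tsc22d3, Fkbp5 and Hsd11b1, and its part in their differences was not tested.

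Markers of other cells were examined in the same way. Over all genes tested, edgeR called 17.2% lower and 15.9% higher, and DESeq2 8.59% and 7.97%. The 6 mural cell markers summed to 121 and 123 CPM in the DPPIV- libraries and to 51.2 and 63.5 CPM in the DPPIV+ libraries, and 5 of the 6 were lower in DPPIV+ FAPs by edgeR (3 by DESeq2), led by Notch3 with -1.597 and Cspg4 with -1.27, while Myh11 was at 9.10 and 7.45 CPM. Macrophage and leukocyte markers summed to 294 and 173 CPM in the DPPIV- libraries and to 182 and 166 CPM in the DPPIV+ libraries, with 3 of the 5 tested lower in edgeR and 0 in DESeq2, and Timd4 had at most 3 reads in any library. Of these calls, those of Lyz2 and Csf1r rest on mouse 1, with log2 ratios of -0.75 and -0.59 there and of -0.04 and -0.00 in mouse 2. Endothelial markers summed to between 34.8 and 64.4 CPM, with 3 of 5 lower in edgeR and 0 in DESeq2, and the calls of Pecam1 and Kdr rest on mouse 1, with log2 ratios of -0.80 and -0.95 there and of -0.00 and 0.10 in mouse 2. Of the tenocyte markers, Tnmd, Scx and Mkx were higher (1.27, 2.14 and 1.44) in both mice and by both tests. Thbs4 was at -0.20, a call that rests on mouse 1 (-0.47, against 0.08 in mouse 2) and that DESeq2 did not make. The sum of the tenocyte markers ran from 1213 to 2322 CPM with overlapping groups. Thbs4 alone, at between 1153 and 2217 CPM, made up most of this sum, which therefore hardly reflects the other markers. Adipocyte markers summed to at most 3.02 CPM and those of satellite cells to at most 5.21 CPM, and neither had a tested gene that passed. Myofibre markers, between 47.2 and 74.9 CPM, had 0 of 5 past the threshold in edgeR, and 1 of 3 tested glial markers was higher in edgeR and 0 in DESeq2. The mural markers, all low beside the FAP markers, moved with the 4 lower genes, and Tnmd, Scx and Mkx moved with the 2 higher ones. The part of such cells in the differences of the 9 genes was not tested.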

How the data were processed

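RNA of sorted DPPIV- and DPPIV+ FAPs was sequenced as paired-end reads, 1 library of each per mouse. The authors demultiplexed the reads (bcl2fastq 2.20, per the submitters' processing notes, which also name Bowtie and STAR), aligned them to mm10 with STAR, tallied them per gene with RnaReadCounter and deposited the raw counts of each gene symbol, which are not normalized. The annotation release and the strand setting are not given in the sources used here. The labels give the tibialis anterior and the NEBNext Ultra II kit, whereas the protocols and methods describe both hindlimbs and the methods a TruSeq Stranded kit.

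From these counts, a gene was kept where 2 or more libraries reached 2 CPM, and was tested with edgeR 4.0.16 (TMM, quasi-likelihood F test, two-sided, not robust) in R 4.3.3 with mouse and cell type as terms. Standard errors are the log2 fold change over the square root of F, and log2 ratios per mouse used a prior count of 0.125. DESeq2 1.42.0 was an alternative. Both tests were first run on simulated counts. The mouse numbers in the sample titles pair the libraries, and the deviations of mouse 2 from mouse 1 correlated at 0.434 over genes. Library pairs of a kind of FAP differed by more than sampling noise (chi-square per degree of freedom 12.8 and 9.5).

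The members, pathway lists and markers were chosen with earlier results of these data known. Some lists share genes, which are counted in each. Dusp1 and Zfp36 stand in the induced and the immediate early lists, and Per2 in the induced and the clock lists. From each list, up to 5 genes past the threshold with the largest change and up to 4 with the highest mean CPM are named; genes outside this rule, such as Nr3c2, were named after their values were seen. Lengths and GC content came from the GENCODE annotation of GRCm38, with the APPRIS principal transcript for levels per kilobase, and promoter windows from RefSeq. Reads and the study's other assays were not analysed here. A gene of the receptor partner list is counted but not reported here by name.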

Additional observations from a re-analysis of the deposited data

How the results depend on the processing

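For the 9 genes, 8 alternatives with a test gave 72 values, and 72 of them kept the direction and the side of the threshold, so 2 genes were higher and 4 lower under each. The largest adjusted p-values of the 6 called genes all came from the fit with no replicate block for mouse: 0.000167 for Hsd11b1, 0.0031 for Tsc22d3, 0.0114 for Mt2, 0.0194 for Fkbp5, 0.0236 for Zbtb16 and 0.026 for Sgk1 (edgeR, Benjamini-Hochberg adjustment). Upper-quartile scaling shifted the median of all genes from -0.00 to -0.04 and gave the lowest log2 fold change of each of the 9. With 1 mouse left out, the value is in essence the ratio of the other mouse given above, so it adds no further check. Of these values, 17 of 18 kept their direction, the exception being Per1, and they ran from -1.28 to -1.06 for Hsd11b1. Over all genes, DESeq2 called 923 higher and 995 lower and the fit with no replicate block 1001 and 1119, against 1837 and 1989. In the lists, DESeq2 and the fit with no replicate block both called 2 genes of corticosteroid supply and clearance lower (against 4), 0 receptor partners lower (against 2; 1 under RLE scaling, under no filter and under 10 counts in every library) and 2 repressed inflammatory genes higher (against 4). Of the other induced genes they called 4 and 5 lower (against 11), and of the clock genes 3 and 2 lower (against 7). With no replicate block, 0 immediate early genes were higher and 6 lower, against 2 and 11. The cause of these changes was not tested. With 2 mice, which leave 1 residual degree of freedom per gene, small differences such as that of Mt1 cannot be placed on either side.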
